A study of Mus musculus with 54 samples.

Results

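The Mageb16 knockdown (KD) line was followed over its first 2 days of differentiation, on 3 arrays of KD embryoid bodies (EBs) at day 2 and 3 arrays of undifferentiated KD embryonic stem cells (ESCs) at day 0. These 6 arrays were taken by their titles out of 54. All cells were CGR8, a male mouse ESC line of the 129 background. The KD line carried an shRNA against Mageb16, a gene of the melanoma antigen family that undifferentiated ESCs express. A retroviral silencing plasmid with this shRNA was transfected, and the cells were selected with puromycin as a polyclonal stable line, so 1 pool of transfected cells stands for the knockdown. The SCR line carried a scrambled shRNA and the wild-type (WT) line no plasmid. For both of these, 3 arrays at day 2 and 3 at day 0 were compared with the KD arrays. EBs of all lines were formed by the random hanging drop method. The labels number the replicates by chip and do not name separate cultures, so the spread between arrays may be technical. The p values measure this spread within the 18 groups of all 54 arrays, and not in the 6 KD arrays alone.

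Mouse ESCs in culture hold the naive state of the early epiblast, in which the shared pluripotency factors work together with a further set of factors kept on by LIF and STAT3 signals. When ESCs aggregate into EBs they leave this state, switch off the naive factors and pass through a formative or primed state like that of the post-implantation epiblast, in which Pou5f1 is still expressed. Germ layer genes follow later. The question of this comparison is which of these steps the KD line had taken by day 2, and whether its change differed from those of the SCR and WT lines.

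Expression was given as log2 values of robust multi-array averaging (RMA) for 30939 probe sets, and a gene was read by its brightest probe set (14104 genes). A value near 4.25 marks the lower quartile of these arrays, where a fold change is not exact. The array medians of the 6 KD arrays lay between 5.94 and 6.02. Arrays within the KD day 2 and KD day 0 groups correlated at 0.993 to 0.997, and the median SD of a probe set was 0.119 log2 at day 2 and 0.118 at day 0. Replicate 3 lay strictly between the other 2 arrays for 43.3% of probe sets in KD at day 2 and 42.8% in KD at day 0, against 22.8% to 28.1% for replicates 1 and 2. Replicate 3 was the array most often in the middle in 17 of the 18 groups of the series. The labels do not say whether replicate 3 is an independent array, and if it is not, a group holds 2 independent arrays and the p values are too small. Counts without replicate 3 are given for the lists whose differences between lines are described.

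Mageb16 itself lay at 5.64, 5.04 and 5.75 log2 in KD EBs at day 2, against 7.11, 7.0 and 7.06 in KD ESCs at day 0. The KD arrays of both days did not overlap, and the change was -1.58 log2 (SE 0.17, limma adjusted p = 1.51e-10). The mean in SCR was 10.09 at day 2 and 10.07 at day 0, and in WT 8.90 at day 2 and 9.95 at day 0. All KD arrays thus lay under both other lines on both days, as the labels say. The fall in KD differed from the change in SCR by -1.60 (adjusted p = 4.04e-06), and from that in WT by -0.53 (adjusted p = 0.271).

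By day 2, 1749 probe sets were higher (5.65%) and 1717 lower (5.55%) in KD EBs than in KD ESCs, by the rule of an adjusted p below 0.05 together with a 2-fold or larger difference. Among genes, 1072 rose (7.6% of those tested) and 675 fell (4.79%). The change was at least 10-fold for 42 genes that rose and 43 that fell. The median change over all genes was 0.07 log2. The 3 arrays of each day did not overlap for 5161 higher genes (36.6%) and 3195 lower genes (22.7%). The same rule gave 903 higher (6.4%) and 516 lower genes (3.66%) in SCR, and 1048 higher (7.43%) and 604 lower genes (4.28%) in WT.

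The naive pluripotency genes fell almost without exception. Of 22 measured, 21 fell, none rose, and 10 fell at least 10-fold. Their median change was -2.83 log2, against 0.07 over all genes, and 4.79% of all genes fell. The plot of naive genes by array shows the 3 day 2 arrays apart from the 3 day 0 arrays for these 21 genes. Over all genes, 22.7% lay lower at day 2 without overlap. The members of all 34 lists were chosen with earlier results of these data known. Their counts beside the shares over all genes are descriptions and not tests.

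**Figure D1:**
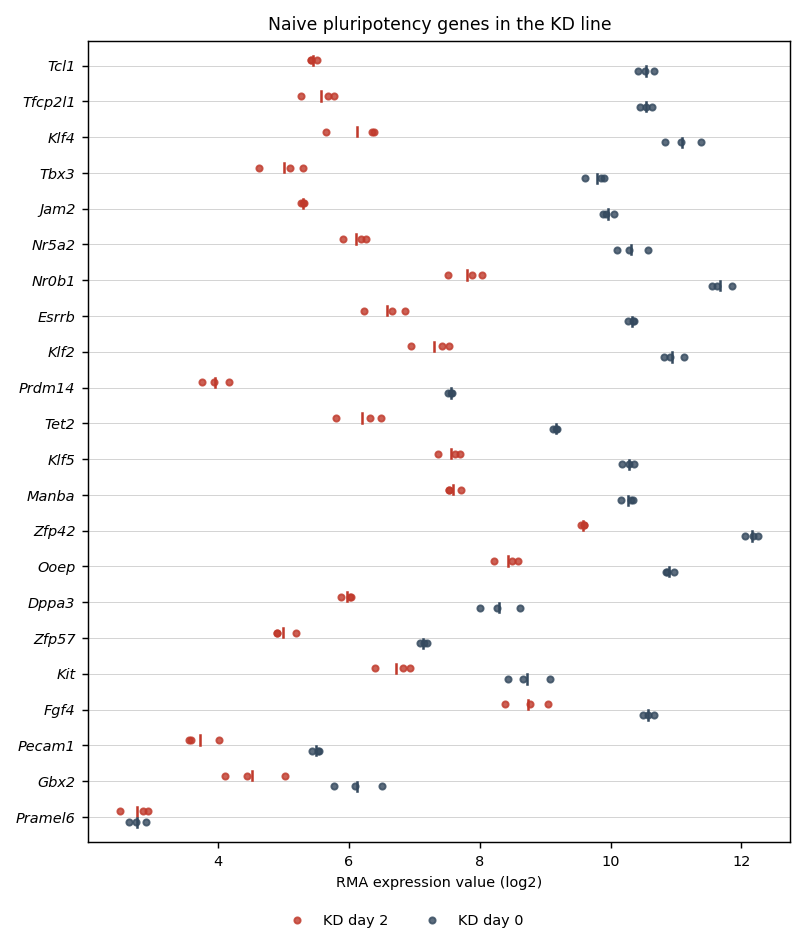
Log2 RMA values of the 22 measured naive pluripotency genes in KD EBs at day 2 (red, upper points of a row) and KD ESCs at day 0 (dark, lower points). Points are single arrays, bars are means of 3, and genes are ordered by their change. In 21 rows every day 2 array lies left of every day 0 array, and Pramel6 (change -0.00) is the exception.

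Tfcp2l1, a transcription factor that sustains self-renewal downstream of LIF, lay at 5.77, 5.27 and 5.69 in KD EBs at day 2, against 10.64, 10.54 and 10.45 in KD ESCs at day 0. This was a fall of 31.3-fold (-4.97 log2, SE 0.15, adjusted p = 1.89e-26), with a gap between the days far wider than the spread of either. Klf4, a Krüppel-like factor of the same circuit, was at 6.39, 5.66 and 6.35 at day 2 and at 11.38, 10.83 and 11.07 at day 0 (31.1-fold). Its relatives Klf2 and Klf5 fell 12.5-fold and 6.56-fold, so the 3 Krüppel-like factors of the naive state were all lower.

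Esrrb, an orphan nuclear receptor and a direct partner of the core factors, lay at 6.86, 6.24 and 6.66 in KD EBs at day 2, against 10.34, 10.27 and 10.36 in KD ESCs at day 0. It fell 13.3-fold (-3.74 log2, SE 0.21, adjusted p = 3.5e-18). The other nuclear receptors of the list, Nr5a2, which binds the Pou5f1 control region, and Nr0b1, which binds Pou5f1 protein, fell 18.4-fold and 14.5-fold. The 4 probe sets of Nr5a2 ran between -4.68 and -0.62 log2. Tbx3, a T-box factor, fell 27.3-fold with 3 probe sets between -5.42 and -1.24 log2.

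Tcl1, a co-activator of Akt, had the largest fall of the list. It lay at 5.43, 5.43 and 5.52 in KD EBs at day 2, against 10.67, 10.52 and 10.42 in KD ESCs at day 0 (33.7-fold). The day 2 arrays lay close together and far under those of day 0. Jam2, a junction adhesion molecule that marks naive ESCs, fell 25.3-fold, and all 5 of its probe sets were lower, between -5.57 and -2.59. Prdm14, which holds down FGF signals and DNA methylation in naive cells, lay at 4.17, 3.94 and 3.76 at day 2 and at 7.57, 7.52 and 7.58 at day 0. It fell 12.1-fold, to a level at or under the lower quartile of the arrays.

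The remaining naive genes fell less. Zfp42 (Rex1), the standard reporter of the naive state, was at 9.60, 9.55 and 9.60 in KD EBs at day 2, against 12.18, 12.05 and 12.26 in KD ESCs at day 0 (5.98-fold), and so was still among the brighter signals. Dppa3 (Stella), a maternal factor that protects DNA from demethylation, fell 4.96-fold. Fgf4, the main FGF of ESCs, fell 3.6-fold, Pecam1, an adhesion molecule, 3.43-fold, and Gbx2, a LIF target, 3.02-fold. Pramel6, a gene of the naive inner cell mass, was at 2.93, 2.86 and 2.51 at day 2 and at 2.91, 2.64 and 2.76 at day 0, near the floor of the arrays on both days.

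The core pluripotency genes changed less than the naive genes. Of 15 measured, 3 fell and none rose, with a median of -0.33, where 4.79% of all genes fell. The arrays of both days did not overlap for 11 lower members, against 22.7% of all genes. The summed signal of the list was 32100 to 33700 in KD EBs at day 2, against 46300 to 47700 in KD ESCs at day 0. Pou5f1 (Oct4), the central POU factor of pluripotency, lay at 11.62, 11.71 and 11.71 in KD EBs at day 2, against 11.92, 12.01 and 12.00 in KD ESCs at day 0. The arrays did not overlap, but the change of -0.30 (SE 0.21) missed the threshold (adjusted p = 0.248). Sox2, its partner, was at 11.21, 10.76 and 11.12 at day 2 and at 11.90, 11.86 and 11.97 at day 0. It differed by -0.88 (adjusted p = 1.83e-06), under the 2-fold minimum.

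Nanog, the homeodomain factor that stabilises the naive state, lay at 10.01, 10.49 and 10.26 in KD EBs at day 2, against 11.80, 11.36 and 11.63 in KD ESCs at day 0, a fall of 2.54-fold (adjusted p = 8.31e-07). Fbxo15, an F-box gene that is a target of Pou5f1 and Sox2 but is not needed for pluripotency, was the exception of the list. It was at 7.51, 7.56 and 7.65 at day 2 and at 11.66, 11.32 and 11.49 at day 0, a fall of 15.1-fold. Gdf3, a Nodal-related ligand, fell 2.29-fold, and the RNA-binding protein Lin28a was at 0.11 log2 and the Nodal co-receptor Tdgf1 at -0.10.

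The LIF and STAT3 genes moved the same way as the naive genes, to a smaller extent. Of 15 measured, 6 fell and none rose (median -0.94), where 4.79% of all genes fell and 7.6% rose. Without replicate 3 of all groups, 8 fell. Among the targets, Socs3, the feedback inhibitor of the pathway, lay at 5.68, 5.77 and 5.68 in KD EBs at day 2, against 7.72, 7.35 and 7.74 in KD ESCs at day 0, a fall of 3.71-fold. Bcl3, a nuclear IkB protein, fell 4.61-fold and Pim3, a kinase, 2.6-fold. Stat3, the transcription factor, fell 2.91-fold by its brightest probe set, but its mean over 4 probe sets was at -0.77, under the minimum. Il6st, the gp130 receptor chain, fell 2.38-fold.

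The primed epiblast genes rose together. Of 26 measured, 20 rose and 2 fell, and their median was 1.78 log2, where 7.6% of all genes rose. This list too was chosen with earlier results of these data known. The rises ran between 1.14 and 5.52 log2, and 4 were of at least 10-fold. The plot of primed genes by array shows these 4 at the top.

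**Figure D2:**
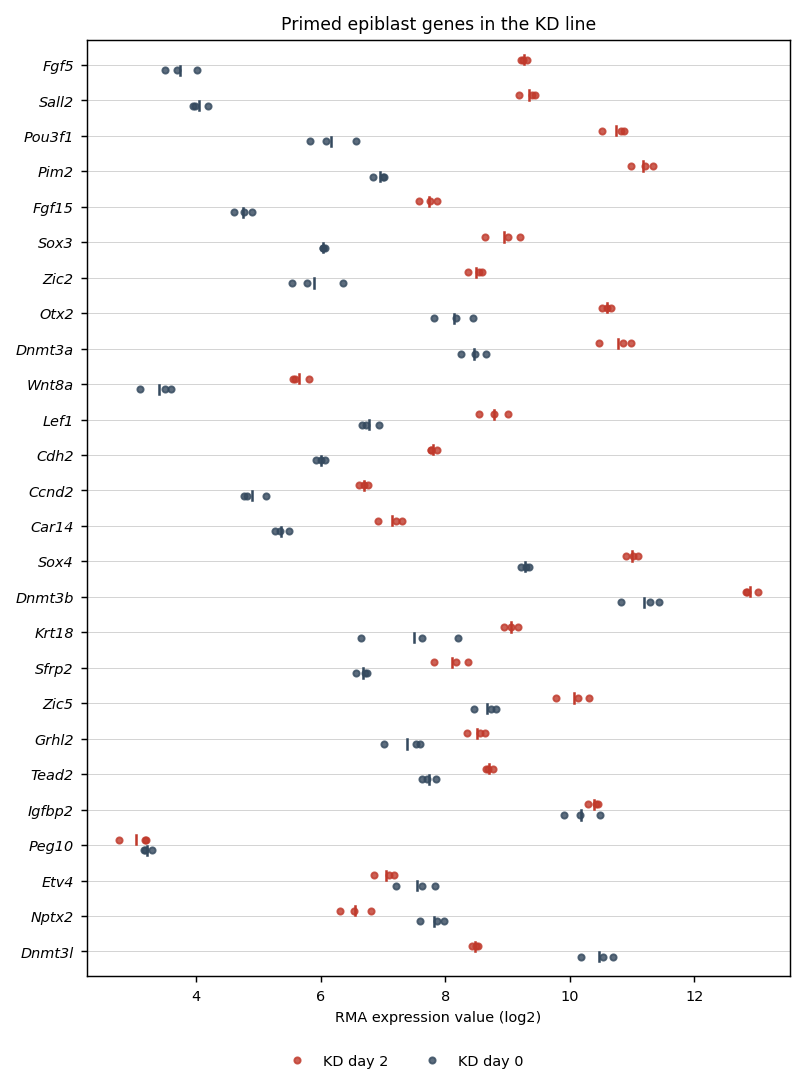
Log2 RMA values of the 26 measured primed epiblast genes in KD EBs at day 2 (red, upper points of a row) and KD ESCs at day 0 (dark, lower points), with points for arrays and bars for means of 3. In 21 rows all day 2 arrays lie right of all day 0 arrays, most widely for Fgf5 (5.52 log2), and in 3 rows they lie left. Over all genes, the shares without overlap are 36.6% higher and 22.7% lower.

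Fgf5, the classic marker of the primed epiblast, had the largest rise of all genes. It lay at 9.32, 9.21 and 9.24 in KD EBs at day 2, against 3.69, 3.5 and 4.01 in KD ESCs at day 0, a 46-fold rise (5.52 log2, SE 0.22, adjusted p = 2.95e-23). All day 0 arrays lay under their lower quartile, and a second probe set rose by 2.69 log2. Pou3f1 (Oct6), the POU factor of the primed state, was at 10.87, 10.52 and 10.82 at day 2 and at 6.56, 5.82 and 6.09 at day 0 (23.9-fold).

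Sall2, a zinc finger factor of the Sall family, lay at 9.44, 9.18 and 9.40 in KD EBs at day 2, against 3.94, 4.19 and 3.98 in KD ESCs at day 0 (39.5-fold). Pim2, a survival kinase, was at 11.34, 10.98 and 11.21 at day 2 and at 6.83, 7.0 and 7.02 at day 0 (18.7-fold). It moved opposite to its relatives Pim1 and Pim3, which fell 2.1-fold and 2.6-fold. By the mean of all probe sets Pim1 was at -0.90 log2, under the minimum. Otx2, the homeodomain factor that drives the exit from the naive state, lay at 10.66, 10.52 and 10.59 at day 2 and at 8.44, 7.82 and 8.17 at day 0 (5.45-fold). Sox3 rose 7.5-fold, Zic2 6.12-fold and Zic5 2.65-fold, all factors of the epiblast and later neural plate.

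Of the members that fell, Dnmt3l, the catalytically inactive partner of the de novo DNA methyltransferases, was at 8.52, 8.43 and 8.49 in KD EBs at day 2, against 10.18, 10.70 and 10.53 in KD ESCs at day 0 (3.97-fold). Nptx2, a pentraxin, fell 2.41-fold. At day 4 the KD line had lost the primed signal of several members. Pou3f1 averaged 6.16 at day 0, 10.74 at day 2 and 5.36 at day 4, and Pim2 averaged 6.95, 11.18 and 6.72 on these days. Others went on upwards, such as Cdh2 (N-cadherin), with means of 6.0 at day 0, 7.80 at day 2 and 10.87 at day 4.

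Promoter sequences are shown for the members of the naive and primed lists whose promoter holds the octamer ATGCAAAT, the element that POU factors such as Pou5f1 and Pou3f1 bind. This motif was chosen after the values of both factors had been seen. RefSeq windows of build GRCm38.p6, 250 bases before to 50 after a gene's start, matched 15 of the 21 naive genes and 13 of the 22 primed genes past the threshold. The octamer was in 1 naive gene (Zfp42) and 2 primed genes (Pim2 and Sfrp2), counted if any window held it on either strand. The matched naive genes had 20 windows and the matched primed genes 24. Over all 32851 windows the share was 1.74%, which is per window and not per gene. Capitals mark the octamer, which reads ATTTGCAT on the other strand.
Zfp42, minus strand of chr8:43306960-43307259: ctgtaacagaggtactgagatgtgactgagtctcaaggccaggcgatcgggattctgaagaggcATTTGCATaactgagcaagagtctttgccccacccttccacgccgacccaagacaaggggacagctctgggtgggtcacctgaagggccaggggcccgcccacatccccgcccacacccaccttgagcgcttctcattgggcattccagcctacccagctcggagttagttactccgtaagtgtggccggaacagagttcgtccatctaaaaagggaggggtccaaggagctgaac
Pim2, plus strand of chrX:7878056-7878355: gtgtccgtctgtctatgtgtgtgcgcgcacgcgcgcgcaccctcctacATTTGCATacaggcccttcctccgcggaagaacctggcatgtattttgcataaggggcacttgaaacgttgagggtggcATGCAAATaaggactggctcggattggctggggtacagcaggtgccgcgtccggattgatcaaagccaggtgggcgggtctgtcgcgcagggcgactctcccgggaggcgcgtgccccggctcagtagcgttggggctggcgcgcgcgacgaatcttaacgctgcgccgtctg
Sfrp2, plus strand of chr3:83766071-83766370: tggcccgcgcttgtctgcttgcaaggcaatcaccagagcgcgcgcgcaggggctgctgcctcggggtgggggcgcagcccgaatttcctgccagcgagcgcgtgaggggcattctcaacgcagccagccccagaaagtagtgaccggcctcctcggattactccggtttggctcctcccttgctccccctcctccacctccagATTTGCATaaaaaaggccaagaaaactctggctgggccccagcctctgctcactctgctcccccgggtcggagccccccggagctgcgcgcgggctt
The octamer starts at base 65 of the Zfp42 window and at base 204 of the Sfrp2 window, and Pim2 holds it on both strands. Zfp42 fell 5.98-fold, while Pim2 rose 18.7-fold and Sfrp2, a secreted Wnt inhibitor, rose 2.72-fold, so genes with the same octamer in the window moved in both directions. A match is a description of the letters and not of binding.

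Of 15 DNA methylation genes, 2 rose, 5 fell and 8 did not pass, with a median of -0.40. Over all genes, 7.6% rose and 4.79% fell. The writers Dnmt3a and Dnmt3b rose 4.95-fold and 3.28-fold, and Dnmt3b was one of the brightest genes of day 2 at 13.03, 12.84 and 12.83, against 10.83, 11.44 and 11.29 in KD ESCs at day 0. The erasers Tet2 and Tet1, which oxidise methylcytosine, fell 7.73-fold and 2.18-fold. Prdm14, Dnmt3l and Zfp57, a keeper of imprints (4.42-fold), fell as well. Among 25 Polycomb and histone modifier genes, 3 fell and none rose, though 1 rose without KD day 0 replicate 3 or KD day 2 replicate 2. Those that fell were the demethylases Kdm3a (3.69-fold) and Kdm5b (2.33-fold) and the Polycomb cofactor Jarid2 (2.06-fold).

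Signalling pathways were mixed, as the plot of gene lists shows. Their counts are set against 7.6% of all genes higher and 4.79% lower. In the FGF and ERK list, 4 of 23 rose and 4 fell. The ligands Fgf5, Fgf15 (7.89-fold) and Fgf8 (3.84-fold) rose, and Fgf4 and Fgf17 (2.35-fold) fell. The feedback phosphatase Dusp6 rose 2.12-fold, while Egr1 and Spsb1 fell 2.69-fold and 2.59-fold. In the Nodal list, 1 of 16 rose and 2 fell, and 2 rose without KD day 0 replicate 1 or KD day 2 replicate 2. Lefty1, a secreted Nodal inhibitor, lay at 10.24, 9.46 and 9.98 in KD EBs at day 2, against 8.06, 8.0 and 7.97 in KD ESCs at day 0 (3.69-fold). Nodal itself was at -0.17 log2.

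**Figure D3:**
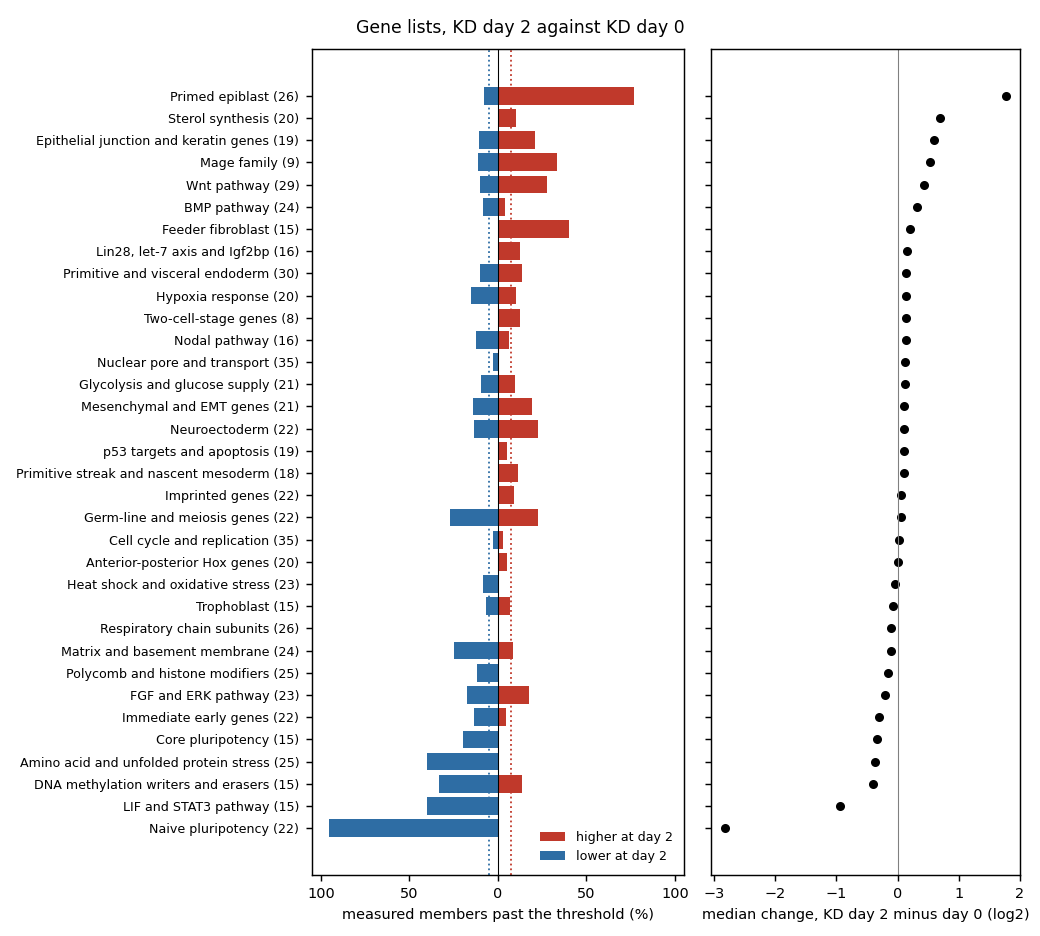
Left, percent of measured members of each list (number in brackets) past the threshold in KD at day 2 against day 0, to the right for higher and to the left for lower. Dotted lines mark the shares over all genes (7.6% higher, 4.79% lower). Right, the median log2 change of each list. The primed list (1.78) and the naive list (-2.83) lie at the ends. All lists were chosen with earlier results of these data known.

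In the Wnt list, 8 of 29 rose and 3 fell (median 0.44), and 5 rose among the brightest 60% of probe sets. Sp8, a zinc finger factor downstream of Wnt, lay at 6.83, 6.84 and 6.78 in KD EBs at day 2, against 3.28, 3.45 and 3.47 in KD ESCs at day 0 (10.7-fold). The ligand Wnt8a rose 4.78-fold, the receptor Fzd2 4.49-fold and the nuclear partner of beta-catenin Lef1 4.02-fold. The potentiator Rspo3 rose 3.59-fold, and the general target Axin2 2.15-fold. The receptor Fzd5 fell 4.43-fold and the inhibitor Sfrp1 3.17-fold.

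In the BMP list, 1 of 24 rose and 2 fell, and 2 rose without KD day 0 replicate 1, KD day 0 replicate 3 or KD day 2 replicate 2. Bmp4, the ligand that supports naive ESCs, had the sharpest of these changes. It was at 5.82, 5.81 and 5.70 in KD EBs at day 2, against 10.07, 10.03 and 10.04 in KD ESCs at day 0, a fall of 19.3-fold (adjusted p = 3.36e-28). Fst (follistatin), which traps activin and BMPs, rose 8.61-fold, at 9.28, 9.62 and 9.56 at day 2 and at 6.53, 6.22 and 6.39 at day 0. Id4, a dominant-negative HLH protein, fell 3.26-fold.

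Germ layer genes are set against 7.6% of all genes higher and 4.79% lower. Of 18 primitive streak and nascent mesoderm genes 2 rose and none fell. Eomes, a T-box factor of the streak, lay at 7.51, 8.27 and 7.98 in KD EBs at day 2, against 5.99, 5.62 and 5.71 in KD ESCs at day 0 (4.43-fold), and Fgf8 was the other. Mixl1 (0.41 log2) and Wnt3 (0.90) did not pass, and no probe set was matched to brachyury by its symbol. Of 22 neuroectoderm genes 5 rose and 3 fell (median 0.11). Zic1 (9.06-fold), Fabp7 (5.66-fold), Irx3 (5.22-fold) and Sox11 (2.94-fold) rose beside Zic2. Ncam1 fell 4.75-fold, Gbx2 3.02-fold and Pax6, a neural homeodomain factor, 2.57-fold, and Sox1 was at -0.64.

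Of the primitive and visceral endoderm genes, 4 of 30 rose and 3 fell, where 7.6% of all genes rose and 4.79% fell. The defining factors Gata4, Gata6, Sox17 and Sox7 lay between 3.66 and 4.63 log2 on both days, near the lower quartile. Dab2, an endocytic adaptor, rose 5.17-fold and Col4a1, a basement membrane collagen, 2.32-fold, while the laminin chains Lama1 and Lamc1 fell 8.9-fold and 2.81-fold. The 4 probe sets of Dab2 ran between -0.09 and 2.37 log2. In the matrix list 2 of 24 rose (1 without KD day 0 replicate 2) and 6 fell, among them the nidogens Nid1 (11.5-fold) and Nid2 (2.51-fold) and fibronectin, Fn1 (4.05-fold).

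Markers of other cells were checked on the same arrays, where 7.6% of all genes rose and 4.79% fell. Of 15 trophoblast genes, 1 rose (Eomes) and 1 fell, the AP-2 factor Tfap2c (6.93-fold). Elf5, Gata3, Tpbpa and Cdx2 lay between 3.24 and 4.76. The summed signal of this list was 1250 to 1370 in KD EBs at day 2 and 1330 to 1490 in KD ESCs at day 0. Of 15 feeder fibroblast genes, 6 rose and none fell, and their summed signal was 628 to 678 at day 2, against 360 to 399 at day 0. Thy1, a surface glycoprotein, rose 4.02-fold, Mmp2, a gelatinase, 3.96-fold and the helix-loop-helix factor Twist1 2.83-fold, but the collagens Col1a1 and Col3a1 and the matrix protein Postn were at -0.04, -0.10 and -0.07 log2, with mean levels of 3.79 to 4.40. For Pdgfrb, Dcn and Col1a2 the mean of all probe sets was under the minimum (0.90, 0.67 and 0.38 log2). The part of other cells in the results was not tested, and in these bulk samples fewer cells of a type and less RNA per cell cannot be told apart.

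Cell adhesion genes changed in part, and are set against 7.6% of all genes higher and 4.79% lower. Of 19 epithelial genes 4 rose and 2 fell. Cldn7 (5.23-fold), Cldn6 (2.91-fold) and Ocln (2.89-fold) of the tight junction and the keratin Krt18 (2.96-fold) rose, while Cldn4 fell 3.99-fold, at 7.37, 7.14 and 7.32 in KD EBs at day 2, against 9.39, 9.12 and 9.31 in KD ESCs at day 0. Of 21 mesenchymal genes 4 rose and 3 fell. Cdh2, the cadherin of mesenchymal and neural cells, lay at 7.87, 7.77 and 7.77 at day 2 and at 5.92, 6.01 and 6.06 at day 0 (3.5-fold). Zeb2, a repressor of E-cadherin, rose 3.5-fold by its brightest probe set, with 5 probe sets between 0.15 and 1.81 log2, while its relative Zeb1 fell 2.41-fold. Snai1, which represses E-cadherin in the streak, was at 0.24.

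Of 25 genes of the amino acid and unfolded protein response, 10 fell and none rose, with a median of -0.37. Over all genes, 4.79% fell and 7.6% rose. The arrays of both days did not overlap for 14 lower and 5 higher members, against 22.7% and 36.6% of all genes. Cth, which makes cysteine, lay at 9.43, 9.50 and 9.49 in KD EBs at day 2, against 11.60, 11.64 and 11.70 in KD ESCs at day 0 (4.51-fold). Asns, asparagine synthetase, fell 3.34-fold, the serine synthesis enzymes Psph and Psat1 2.69-fold and 2.11-fold, and the amino acid carriers Slc7a1 and Slc7a5 3.62-fold and 2.04-fold. Nupr1, a stress-induced nuclear protein, was at 6.09, 6.02 and 6.25 at day 2 and at 7.97, 8.55 and 8.36 at day 0 (4.51-fold).

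Of 20 sterol synthesis genes 2 rose and none fell, the last reductase of the pathway Dhcr7 (3.67-fold) and the farnesyl synthase Fdps (2.63-fold), although the list's median was 0.70 and the arrays of 16 members lay higher at day 2 without overlap, against 36.6% of all genes. Of 26 respiratory chain subunits none passed, with changes between -0.61 (Uqcrc1) and 0.63 (Cycs). Over all genes, 7.6% rose and 4.79% fell. In the glycolysis list 2 of 21 rose and 2 fell, and in the hypoxia list 2 of 20 rose (1 without KD day 0 replicate 2) and 3 fell, led by Ndrg1 (5.53-fold lower). Of 23 heat shock and oxidative stress genes 2 fell, the small chaperones Hspb1 (7.24-fold) and Hspb8 (4.39-fold). Hspb1 lay at 10.13, 9.81 and 9.90 at day 2 and at 12.78, 12.86 and 12.77 at day 0.

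Against 7.6% of all genes higher and 4.79% lower, cell cycle and replication genes were nearly flat. In this list 1 of 35 was higher (Ccnd2, cyclin D2, 3.45-fold) and 1 lower (Rbl2, a pocket protein, 3.7-fold). Without KD day 0 replicate 2, KD day 0 replicate 3 or KD day 2 replicate 3, 2 were higher, and 3 without replicate 3 of all groups. Of 19 p53 targets and apoptosis genes 1 rose, the BH3-only gene Pmaip1 (3.17-fold). Of 22 immediate early genes Ier5 rose 5.02-fold, and Fos, Nr4a1 and Egr1 fell 3.87-fold, 2.72-fold and 2.69-fold. The 3 lower members became 5 without KD day 2 replicate 3 and 6 without replicate 3 of all groups. Of 35 genes of the nuclear pore and transport 1 fell (Ranbp17, a transport receptor, 2.13-fold), and of 20 Hox and related genes 1 rose from near the floor (Hoxd1, 2.23-fold).

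Within the Mage family, 3 of 9 measured genes rose and only Mageb16 fell, where 7.6% of all genes rose and 4.79% fell. Magel2, a ubiquitin ligase partner in the Prader-Willi region, lay at 7.49, 7.43 and 7.38 in KD EBs at day 2, against 4.76, 5.21 and 4.65 in KD ESCs at day 0 (5.9-fold). Ndn (necdin), its imprinted neighbour, rose 4.23-fold, and Maged2 2.53-fold by its brightest probe set. By the mean of all probe sets Maged2 was at 0.70 log2, under the minimum. Germ-line genes went both ways, with 5 of 22 higher and 6 lower. The helicase Ddx4 rose 2.18-fold and the piRNA factor Mael 2.24-fold. Tex19.1, a controller of retrotransposons, fell 4.4-fold and Prdm1 (Blimp1), a transcriptional repressor, 3.57-fold. Of 8 genes of the 2-cell stage 1 rose (Arg2, 2.67-fold).

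The largest changes outside the lists were also read off. Pdzrn3, a ubiquitin ligase with PDZ domains, lay at 8.57, 8.39 and 8.57 in KD EBs at day 2, against 3.81, 3.83 and 3.23 in KD ESCs at day 0 (29.6-fold). Car4, a membrane carbonic anhydrase, rose 24.1-fold, Irs4, an insulin receptor substrate, 23.8-fold, and Nrcam, a neuronal adhesion molecule, 23.6-fold. Trim12c, Jakmip2, Ms4a4d and Zfp608 rose 17.5-fold to 21.8-fold. The probe sets of Nrcam ran between 0.75 and 4.56 log2, and those of Trim12c between 0.93 and 4.45. The day 0 means of Pdzrn3, Car4, Nrcam, Jakmip2 and Ms4a4d lay under the lower quartile, so their folds are not exact.

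Ahnak, a giant scaffold protein, had the largest measured fall, at 4.20, 3.87 and 3.94 in KD EBs at day 2 and at 9.92, 9.60 and 9.75 in KD ESCs at day 0 (53.9-fold), and its 3 probe sets ran between -5.75 and -1.67. Lgals3 (galectin-3), a lectin, was at 6.0, 5.75 and 5.78 at day 2 and at 11.35, 11.48 and 11.43 at day 0 (47.7-fold). The protease inhibitors Spink1 and Serpinb6c fell 43.9-fold and 43.2-fold, Mme (neprilysin), a membrane peptidase, 42.8-fold and Laptm5, a lysosomal membrane protein, 34.7-fold. Emp1, an epithelial membrane protein, fell 26.2-fold. All day 2 arrays of Ahnak, Spink1, Serpinb6c and Emp1 and 1 of Mme lay under the lower quartile, so these folds and their order are not exact.

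The change in KD was then set against the change in SCR. It differed for 295 genes upwards (2.09% of those tested) and 302 downwards (2.14%), and against the change in WT for 46 genes upwards (0.326%) and 80 downwards (0.567%). Both tests share the KD arrays. Of the 302 genes with a lower change than in SCR, 174 fell in KD and 80 rose in SCR. The sign in KD and SCR was opposite for 134, and for 122 it was the same with the larger change in KD. Of the 80 with a lower change than in WT, 64 fell in KD, and for 61 the sign was the same in WT with the larger change in KD. Among the 46 with a higher change than in WT, the gap between KD and WT was wider at day 0 than at day 2 for 41. Without replicate 3 of all groups, 599 probe sets differed from SCR in place of 1024 (3.31% of those tested), and 30 from WT in place of 211 (0.682%).

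The change of 21 of the 22 naive genes was lower in KD than in SCR, and that of 21 was lower in KD than in WT. Their median change was -2.83 in KD, -1.55 in SCR and -2.15 in WT. The fall was larger in KD than in SCR for 17 of 22 genes past the threshold and larger than in WT for 12, where 2.14% and 0.567% of all genes passed in this direction. The 12 became 3 without replicate 3, and the 17 became 16. The plot of changes by line shows KD as the lowest point in most rows.

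**Figure D4:**
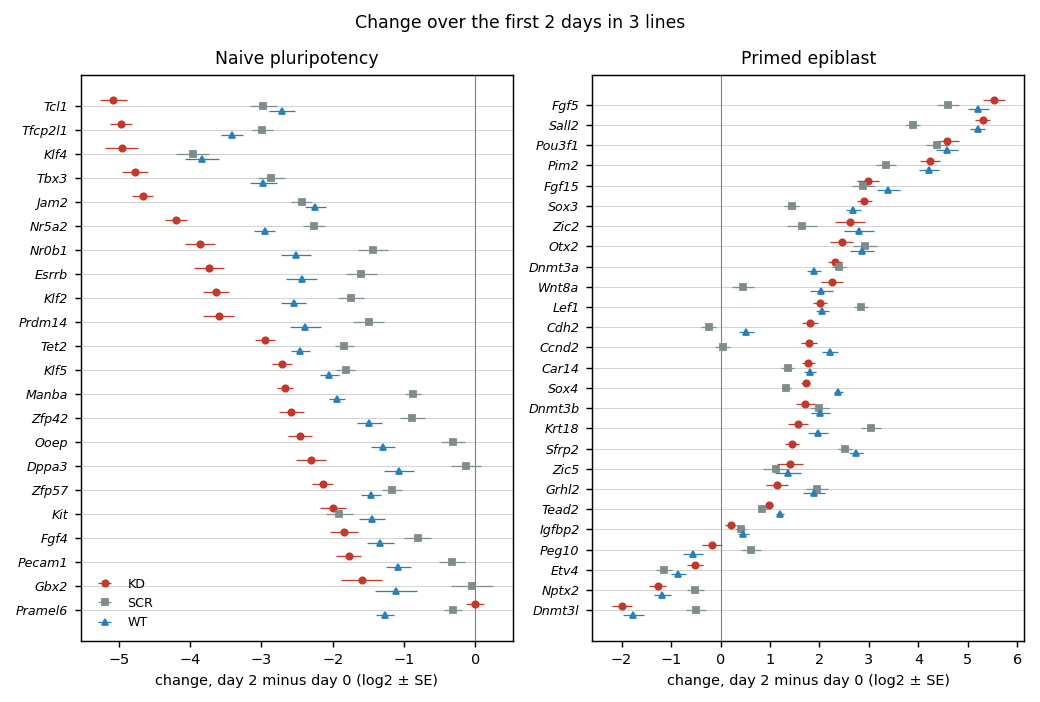
Change at day 2 against day 0 (log2, points with SE bars from limma) of the naive genes (left) and primed genes (right) in KD (red circles), SCR (grey squares) and WT (blue triangles), with 3 arrays a day and line. The median naive change is -2.83 in KD, -1.55 in SCR and -2.15 in WT, and the median primed change is 1.78, 1.54 and 2.03 in this order.

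Nr0b1 fell by 3.86 log2 in KD, against 1.44 in SCR and 2.52 in WT, and the difference was -2.42 from SCR and -1.34 from WT. Tcl1 differed by -2.10 from SCR (adjusted p = 1.7e-07) and by -2.36 from WT (adjusted p = 1.72e-07), and Jam2 by -2.23 and -2.42 in the same order. Dppa3 was at -2.31 in KD, -0.13 in SCR and -1.07 in WT, so the change in SCR was the smallest of the 3 lines. For Klf4, Klf5 and Kit the difference from either line did not pass (Kit -0.09 from SCR and -0.55 from WT). Klf4 came close in limma, with -0.993 from SCR (adjusted p = 0.038, under the 2-fold minimum) and -1.127 from WT (adjusted p = 0.0543). Pramel6 went the other way, since it was near the floor in KD on both days and changed by -1.27 in WT.

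The primed genes had a median difference of 0.16 from SCR and -0.07 from WT. From SCR 5 of 26 members differed upwards and 3 downwards, where 2.09% and 2.14% of all genes did, and from WT 1 each way. Without replicate 3 of all groups, 5 differed upwards from SCR, and in limma 0 passed downwards from SCR (5 at an unadjusted p under 0.05) and 0 from WT in either direction (1 higher and 2 lower at an unadjusted p under 0.05). Sall2 rose more in KD than in SCR by 1.42, Sox3 by 1.47 and Wnt8a by 1.80, but by 0.11, 0.22 and 0.22 log2 against WT, which did not pass. Cdh2 rose by 1.81 in KD and was at -0.24 in SCR and 0.52 in WT, a difference of 2.05 and 1.28, both past the threshold. Sfrp2 rose less in KD, by 1.44, against 2.51 in SCR and 2.74 in WT.

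The mesenchymal list held 6 genes with a higher change in KD than in SCR and 3 than in WT, and none with a lower change. Over all genes, 2.09% had a higher change than in SCR and 0.326% than in WT. Vim (vimentin), an intermediate filament, was at 9.13, 9.25 and 9.44 in KD EBs at day 2, against 9.31, 9.76 and 9.77 in KD ESCs at day 0. Its change of -0.34 in KD compares with -1.93 in SCR and -1.50 in WT. Zeb2 differed by 1.99 from SCR and 1.38 from WT. Without replicate 3, 5 mesenchymal genes differed from SCR and 0 from WT in limma (7 higher from WT at an unadjusted p under 0.05).

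Of the epithelial genes, 3 had a lower change in KD than in WT and none a higher one. Over all genes, 0.567% were lower and 0.326% higher. Without replicate 3 of all groups, 0 epithelial genes differed from WT in limma (6 lower and 1 higher at an unadjusted p under 0.05). Esrp1, a splicing factor of epithelia, was at 0.70 log2 in KD, against 2.73 in SCR and 2.15 in WT. Cldn4 differed by -1.61 from SCR and -1.10 from WT. Lefty2, the sister of Lefty1, was at 0.61 in KD (adjusted p = 0.0821), against 2.54 in SCR and 2.09 in WT, whereas Lefty1 rose by 1.88, 2.23 and 2.19 in these lines. In the neuroectoderm list 6 genes had a higher and 2 a lower change in KD than in SCR, against 2.09% and 2.14% of all genes. Without replicate 3, the list held 1 each way. From WT, 0 differed in limma with all replicates (1 each way at an unadjusted p under 0.05). Fgfr2, an FGF receptor, was at -0.73 in KD, 1.06 in SCR and 0.33 in WT.

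The plot of genes that differed between lines gives single arrays of 8 genes. Fst had the largest difference from SCR, 4.48 log2 (SE 0.42, adjusted p = 2.89e-10), since it rose by 3.11 in KD and was at -1.38 in SCR, and the difference from WT was 1.42 (adjusted p = 0.0532). Has2, hyaluronan synthase, rose 16-fold in KD and differed by 2.77 from SCR and by 0.07 from WT. Wls, which exports Wnt proteins, and Tm6sf1 differed by 2.74 and 2.58 from SCR, and by 0.42 and 0.37 from WT. In these genes, and in Sp8 and Nrcam, the change in WT lay closer to that in KD than the change in SCR did.

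**Figure D5:**
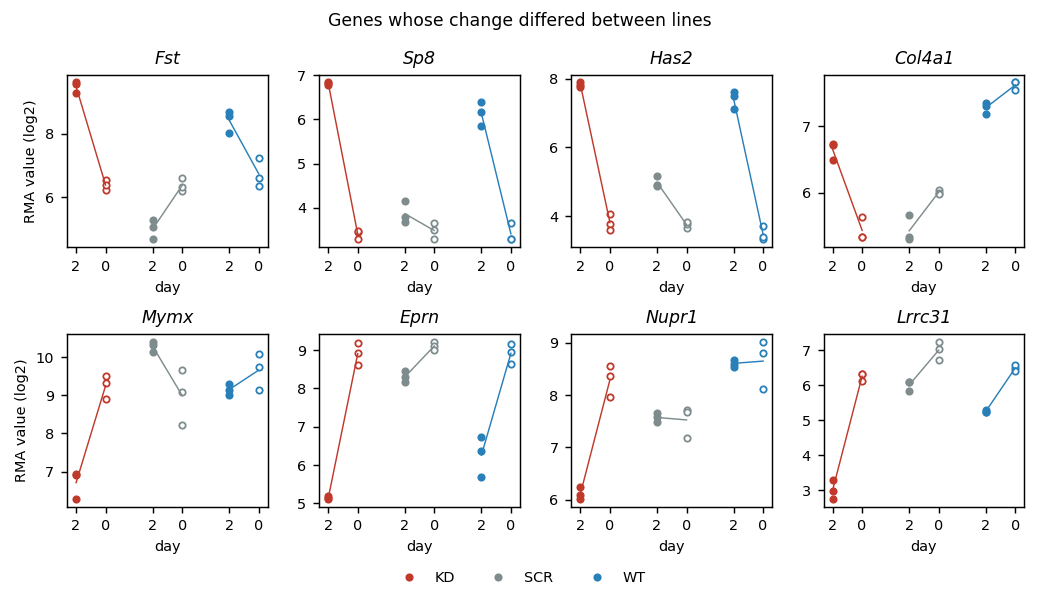
Log2 RMA values of 8 genes in KD (red), SCR (grey) and WT (blue), with filled points for day 2 and open points for day 0 (single arrays, lines join the means of 3, and each panel has its own scale). Fst, Sp8 and Has2 were higher at day 2 in KD and WT and changed least or fell in SCR. Nupr1 and Lrrc31 fell more in KD than in either other line.

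Downward, Mymx, a membrane peptide known for myoblast fusion, lay at 6.92, 6.29 and 6.93 in KD EBs at day 2, against 8.91, 9.51 and 9.32 in KD ESCs at day 0, and differed by -3.82 from SCR and -2.03 from WT. Eprn, a long noncoding RNA, fell 13.6-fold and Enox1, a surface oxidase, 12-fold in KD, with differences of -2.96 and -2.93 from SCR. Anxa1, an annexin, differed by -2.99 from SCR by its brighter probe set, and its other probe set changed by -0.05 in KD. Nupr1 fell by 2.17 in KD, against a change of 0.05 in SCR and -0.04 in WT, and Lrrc31 fell by 3.25 and differed by -2.26 from SCR and -2.01 from WT. Plac8 and Capn3 were at -0.25 and -0.37 in KD, whereas in SCR they rose by 2.97 and 2.59. All 12 of the leading differences from SCR passed without replicate 3, but 4 of the 12 leading differences from WT did (Gm21283, Col4a1, Jam2 and Tcl1).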

How the data were processed

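Gene expression was measured with the Affymetrix Mouse 430 2.0 array in 54 samples, and the deposited table holds log2 values of 30939 probe sets. According to the submitters' processing notes, the authors computed the log2 values by RMA, which corrects background, equalises the distributions of the arrays and summarises the probes of a set. The notes name Expression Console and Partek 6.6, whereas the methods of the paper name R packages. Values lay between 1.65 and 14.03, and no further normalization was applied. The number of arrays limits the precision.

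The 18 group means were estimated jointly from all 54 arrays in limma 3.58.1 (R 4.3.3) with empirical Bayes variances, and p values were adjusted over all probe sets by Benjamini and Hochberg. The threshold was an adjusted p below 0.05 together with a 2-fold or larger difference. Changes are day 2 minus day 0, and differences between lines are interaction contrasts. Groups came from the sample titles. The probe annotation gives 25596 probe sets 1 symbol, 685 several and 4658 none. Each gene was read by its brightest probe set among those that name no other gene. The scripts were tested on simulated data.

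The members and the 34 lists (717 of 811 entries measured) were chosen with earlier results of these data known. Named genes are Mageb16, Pou5f1, Sox2 and Nanog, the 12 largest rises and falls with separate arrays, the 6 largest differences from SCR and from WT each way, and up to 6 members of a list, or all where under 3 passed. Genes named beyond this rule were chosen after their values were seen. Alternatives varied the normalization, the probe sets, the arrays in the fit, the replicate block, the variance model, array weights and the 2-fold rule, and each array was left out. Promoter sequences are RefSeq windows of GRCm38.p6.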

Additional observations from a re-analysis of the deposited data

Results flagged for a closer look

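The change over the first 2 days differed between lines by the interaction test in limma. Against SCR, the change in KD was higher for 505 probe sets and lower for 519, and against WT it was higher for 77 and lower for 134. These counts use adjusted p under 0.05 with a 2-fold difference. Without replicate 3 of all groups, 272 were higher and 327 lower than in SCR, and 10 were higher and 20 lower than in WT.

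The largest higher changes in KD than in SCR were 4.48 log2 for Fst, 3.05 for Nrcam, 3.03 for Sp8, 2.77 for Has2, 2.74 for Wls and 2.58 for Tm6sf1. The largest lower ones were -3.82 for Mymx, -3.21 for Plac8, -2.99 for Anxa1, -2.96 for Eprn, -2.95 for Capn3 and -2.93 for Enox1. All 12 passed again without replicate 3.

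Against WT, the largest higher changes were 2.31 log2 for Tspan8, 2.09 for Cdc14a, 1.97 for Ceacam20, 1.88 for Gm21283, 1.56 for Htr1b and 1.56 for Col4a1. Cdc14a, a phosphatase, averaged 7.27 in KD at day 2 and 6.75 at day 0, against 7.23 and 8.80 in WT on the same days, so the lines were apart at day 0 and close at day 2. Gm21283 lay between 3.11 and 3.46 in all 6 KD arrays. All KD arrays of Tspan8, Gm21283 and Htr1b lay under the lower quartile, as did all day 2 and 2 day 0 arrays of Ceacam20. In WT, Tspan8, Ceacam20, Gm21283 and Htr1b changed by -1.29, -3.51, -1.92 and -1.52 log2. The probe sets of Tspan8 ran between -0.25 and 1.02 in KD, and their mean changed by 0.105. The largest lower changes were -2.42 for Jam2, -2.36 for Tcl1, -2.13 for Nupr1, -2.11 for Gbp2b, -2.03 for Mymx and -2.01 for Lrrc31. Of these 12 genes, 4 passed without replicate 3.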

How the results depend on the processing

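The counts over all probe sets of KD at day 2 against KD at day 0 moved by under 1.5 times in each alternative but 1. With a test against the 2-fold minimum itself (treat), 1541 probe sets passed in place of 3466 (809 higher, 732 lower), and 101 list genes in place of 155. Leaving out 1 array gave 3435 to 3605 probe sets (1704 to 1827 higher, 1617 to 1817 lower), 139 to 142 of the 150 named genes and 154 to 161 list genes. Without replicate 3 of all groups, an alternative chosen after seeing the data, 3475 passed. The differences between lines depended more on the fit. Against SCR, treat gave 102 (33 higher, 69 lower) in place of 1024, and leaving out replicate 3 of all groups gave 599 (272 higher, 327 lower). Leaving out 1 array gave 980 to 1174 (458 to 597 higher, 495 to 577 lower). Against WT, 211 became 3 with treat (1 higher, 2 lower), 138 with only the arrays compared (45 higher), 30 without replicate 3 of all groups (10 higher, 20 lower), and 162 to 300 with 1 array left out (58 to 127 higher, 104 to 173 lower). The highest of these came without WT day 0 replicate 2. The count of higher changes was 46 among the brightest 60% of probe sets and 118 with array weights. The cause was not tested.

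The labels do not say whether replicate numbers pair the samples, and the main fit did not pair them. Arrays of the same number correlated in their deviations at -0.047, -0.036 and 0.125 in KD. The best correlation with another number was 0.053, 0.101 and -0.017. With 3 arrays a group these values cannot decide the question. A replicate block left 3465 probe sets for KD with all 54 arrays and 3461 with only the arrays compared. Against WT with only the arrays compared, the block gave 98 (28 higher, 70 lower).

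Of the named genes, those that changed sign were near no change in KD. Capn3 was at 0.087 by the mean of its probe sets. Gm21283 was between -0.15 and 0.025 with 1 KD array left out. Htr1b was at -0.251 with array weights and between -0.11 and 0.26 with 1 KD array left out, and Gbp2b was between -0.728 and 0.157. Treat took 36 of the 142 called named genes under the threshold, Nanog, Gdf3 and Il6st among them, the mean of all probe sets took 9, and leaving out any 1 KD array took at most 3. In all, 37 lost their call in some alternative. Of 68 counts of higher or lower members in single lists, 22 moved by over 1.5 times with treat, 7 with the brightest 60% of probe sets, 4 with the mean of all probe sets, 4 without replicate 3 of all groups and at most 3 with 1 KD array left out.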
